A study of Homo sapiens with 58 samples.

Results

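Conjugation enzymes make drugs and hormones more soluble by joining a polar group to them, and CYP3A enzymes oxidise them. The 10 genes described here are the glutathione transferase genes GSTA1 and GSTA2, the sulfotransferase genes SULT2A1 and SULT1A1, the glucuronosyltransferase genes UGT1A1, UGT1A6 and UGT2B7, the oxidase genes CYP3A5 and CYP3A7, and NR1I2, which encodes the pregnane X receptor (PXR). They were chosen as a list of drug metabolism genes, with earlier results of these data known, and found by symbol among 60675 gene identifiers. Messenger RNA of HepG2, an established human hepatocellular carcinoma line, had been sequenced after 24 h with 1 of 8 herbal extracts or a vehicle, in 58 libraries of 24 groups. In all 58 libraries 8 of the 10 genes reached 1 CPM (counts scaled to a common library total), while UGT1A1 did so in 6 libraries and UGT1A6 in 0.

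Glutathione transferases join glutathione to reactive compounds, sulfotransferases add sulfate and glucuronosyltransferases add glucuronic acid. These enzymes are abundant in liver, and PXR is a nuclear receptor that many drugs activate and that raises the transcription of CYP3A and several conjugation genes. The aryl hydrocarbon receptor and NRF2, a transcription factor of the oxidative stress response, are also known to induce UGT1A genes in human cells. CYP3A7 is the main CYP3A form of fetal liver, and hepatoma lines such as HepG2 are known for low levels of many of these enzymes.

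Hot water extracts of the formulas Sayeok-tang (3 libraries at each dose) and Bojungikgi-tang (2 libraries at each dose) were used. Ethanol extracts of Zingiberis Rhizoma Recens (fresh ginger), Pinelliae Tuber and Scutellariae Radix had 3 libraries at every dose, and that of Zingiberis Rhizoma (dried ginger) had 2 at the high dose and 3 at the others. For these 6 extracts the low, medium and high doses were 20, 100 and 500 µg/mL. Ethanol extracts of Coptidis Rhizoma (11.2 and 56 µg/mL) and Zizyphi Fructus (20, 100 and 500 µg/mL) had 1 library at each dose. The vehicle group had 3 libraries of cells with 0.1% DMSO by the sample labels, while the design text of the series gives another DMSO share. Nothing says that replicates were separate cultures, so that the p-values measure the spread between these libraries, which may be technical.

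Each library held 22143845 to 31859981 expected counts. Albumin (ALB) was between 7831 and 11231 CPM and all 6 hepatocyte markers had reads in every library, with TTR at 28.9 to 66.5 CPM. The leukocyte gene PTPRC and the collagen gene COL1A2 had no reads in any library. Of 15 markers of other cell types 12 were at most 4.17 CPM, and the others were VIL1 (212 to 386 CPM), CD68 (26.9 to 74.0 CPM) and PDGFRB (3.70 to 23.5 CPM). ALB was itself lower at the high doses of Sayeok-tang (8045 ± 51.7 CPM), Zingiberis Rhizoma (8076 ± 17.6 CPM), Scutellariae Radix (8313 ± 43.7 CPM) and Zingiberis Rhizoma Recens (8938 ± 339.8 CPM, against 10323 ± 262 CPM in vehicle), and its part in the changes below was not tested. The vehicle libraries carry another number in their label than any extract, so that this number and the treatment cannot be told apart against vehicle. All sample titles, those of vehicle included, carry the same batch name (BatchC), and the labels do not say what the number stands for. In such bulk libraries fewer expressing cells and less RNA per cell cannot be told apart. Comparisons between doses of an extract are between libraries with the same number, as are those of Zingiberis Rhizoma Recens with Zingiberis Rhizoma, Scutellariae Radix with Pinelliae Tuber and Sayeok-tang with Bojungikgi-tang. At the low dose, replicate 3 stood apart from the other libraries of its group with Scutellariae Radix and with Zingiberis Rhizoma (chi-square per gene 12.92 and 16.04 for Scutellariae Radix, where the other 2 replicates gave 3.246, and 13.15 and 13.95 for Zingiberis Rhizoma, where they gave 2.265).

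Levels are CPM scaled by the TMM method, given as mean ± SD with the n of the group above, and serve to compare a gene between groups, not genes with each other. Differences are log2 fold changes with their standard error. The test was edgeR's quasi-likelihood test over 13945 genes with Benjamini-Hochberg adjustment, and a gene was called at an adjusted p under 0.05. All comparisons with vehicle share the 3 vehicle libraries. Statements that groups did not overlap describe these few libraries, with no share over all genes to set beside them. UGT1A1 passed the filter only through groups in which it is high, among them Scutellariae Radix and Zingiberis Rhizoma at the high dose, so that counts and medians over the 9 tested genes are a description. For these 2 groups its p-values are given from a fit with no filter, beside the log2 fold change of that fit. Standard errors are those of the fit with the filter.

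At 500 µg/mL Scutellariae Radix had 7 of 9 genes called against vehicle (2 higher and 5 lower), where 56.7% of all genes were called (28.7% higher and 28.1% lower). Sayeok-tang had 6 called (2 higher and 4 lower), beside 40.2% of all genes (20.3% higher and 19.9% lower). Zingiberis Rhizoma had 6 called (4 higher and 2 lower), beside 46.1% of all genes (23.3% higher and 22.8% lower). Zingiberis Rhizoma Recens had 5 called (2 higher and 3 lower), beside 47.9% of all genes (24.3% higher and 23.6% lower). Bojungikgi-tang had 5 called (2 higher and 3 lower), beside 4.55% of all genes (2.24% higher and 2.31% lower), and 3 by DESeq2, which gave 1 gene, UGT1A1, no adjusted p. UGT1A1 is among the called genes with Scutellariae Radix, Sayeok-tang, Zingiberis Rhizoma and Bojungikgi-tang. Leaving out 1 library of Bojungikgi-tang or of vehicle took its count of 5 to between 0 and 4, with 0 without Bojungikgi-tang replicate 2, 1 without its replicate 3 and 2 without vehicle replicate 1 or 2. With Pinelliae Tuber edgeR called 0 of 9, beside 15.7% of all genes (9.14% higher and 6.57% lower). There 2 of 9 had an unadjusted p under 0.05 and DESeq2 called 0 (no adjusted p for 1). Without replicate 3 of Pinelliae Tuber, NR1I2 was called (-0.24, edgeR, adjusted p = 0.0481). The median log2 fold change of the 9 genes was -0.71 with Scutellariae Radix, where that of all genes was 0.01, and lay between -0.04 and 0.11 with the other 5, where medians of all genes lay between 0.00 and 0.01.

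**Figure D1:**
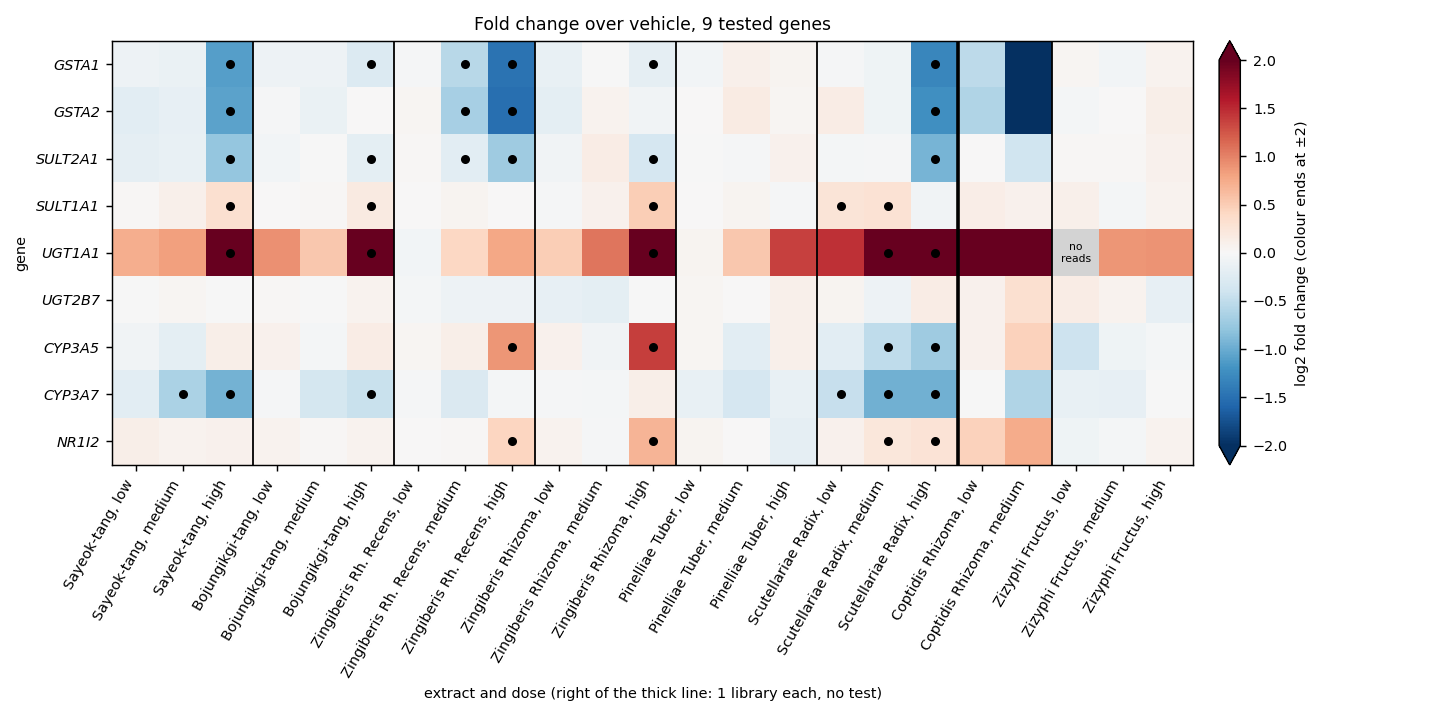
Log2 fold change over vehicle (colour) of the 9 tested genes in rows, for each extract and dose in columns, with a dot where edgeR called the gene. GSTA1, GSTA2 and SULT2A1 are lower at the high doses of Sayeok-tang, Zingiberis Rhizoma Recens and Scutellariae Radix, UGT1A1 is higher at those of Sayeok-tang, Bojungikgi-tang, Zingiberis Rhizoma and Scutellariae Radix, and UGT2B7 has no dot. Columns of Coptidis Rhizoma and Zizyphi Fructus hold 1 library each and were not tested.

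At 100 µg/mL Scutellariae Radix had 5 of 9 called (18.3% of all genes), Zingiberis Rhizoma Recens 3 (11.3%) and Sayeok-tang 1 (4.22%). At that dose edgeR called 0 with Bojungikgi-tang (0.0645% of all genes), 0 with Zingiberis Rhizoma (1.45%) and 0 with Pinelliae Tuber (0.287%). An unadjusted p under 0.05 was found there for 1, 2 and 1 genes in the order given, and DESeq2 called 0, 0 and 0, but gave no adjusted p for 6, 3 and 3 of the 9. At 20 µg/mL Scutellariae Radix had 2 of 9 called (10.3% of all genes), and 1 without vehicle replicate 1 or its own replicate 1. That count was 2 without replicate 3 as well. EdgeR called 0 at that dose of Sayeok-tang (0.0574% of all genes, 2 with an unadjusted p under 0.05, 0 by DESeq2) and 0 with Bojungikgi-tang (0%, 0 and 0). It called 0 with Zingiberis Rhizoma Recens (0.602%, 0 with an unadjusted p under 0.05 and 0 by DESeq2), 0 with Zingiberis Rhizoma (2.12%, 3 and 0) and 0 with Pinelliae Tuber (0.272%, 0 and 0). DESeq2 gave no adjusted p for 6 of the 9 genes with Sayeok-tang and 5 with Pinelliae Tuber at 20 µg/mL, 1 with Zingiberis Rhizoma Recens, 1 with Zingiberis Rhizoma and 0 with Bojungikgi-tang. Without replicate 2 of the low dose of Zingiberis Rhizoma, GSTA1 was called there (-0.22, adjusted p = 0.0307).

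**Figure D2:**
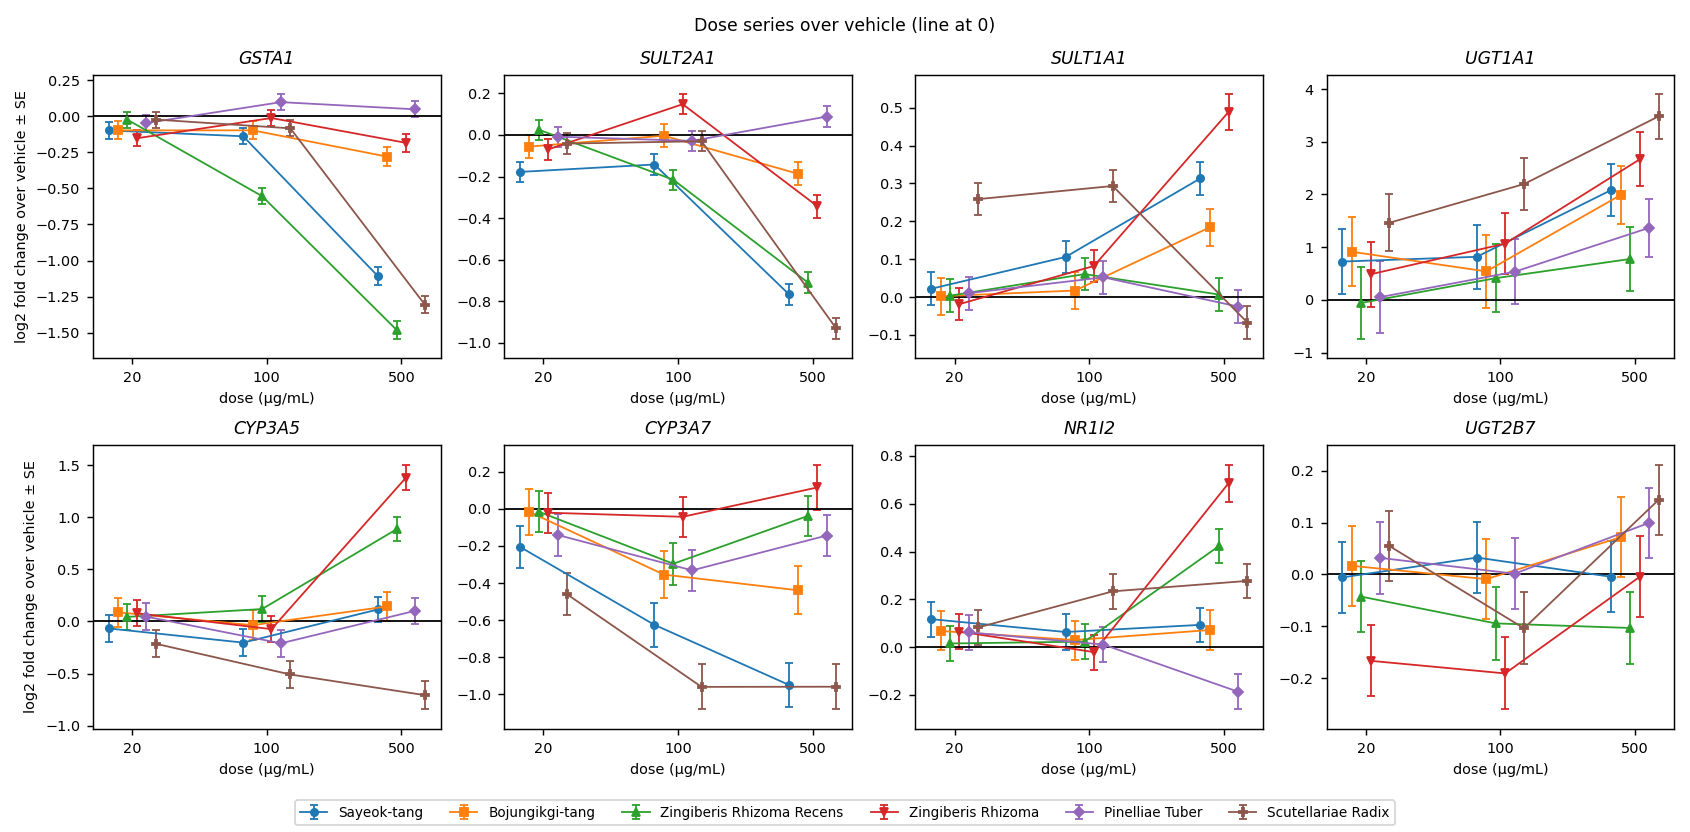
Log2 fold change over vehicle with its standard error (vertical axis) against dose in µg/mL (horizontal axis, evenly spaced steps) for the genes named on the panels, 1 line per extract. GSTA1 with Zingiberis Rhizoma Recens is at -0.55 at 100 µg/mL and -1.48 at 500 µg/mL, and SULT1A1 with Scutellariae Radix is at 0.29 and -0.07 at these doses.

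GSTA1 and GSTA2 encode the main alpha-class glutathione transferases of liver, which also bind bilirubin and reduce lipid peroxides. In GRCh38, by GENCODE release 29, the genes lie near each other (ENSG00000243955, chromosome 6 from 52791664 to 52803910, minus strand for GSTA1, and ENSG00000244067, chromosome 6 from 52750089 to 52763569, minus strand for GSTA2). Of the 100-base words in GSTA1 transcripts 12.0% also occur in GSTA2, and 9.1% of those of GSTA2 occur in GSTA1, so that part of their reads was divided between them by estimation. Stretches before both starts are shown because the genes changed together. They run from 244 to 95 bases before the RefSeq start, at chr6:52803911-52804060 for GSTA1 and chr6:52763570-52763719 for GSTA2 on the minus strand of GRCh38.p14. Capitals mark the 4 positions at which they differ, and the other 146 of 150 bases (97.3%) are identical.
GSTA1: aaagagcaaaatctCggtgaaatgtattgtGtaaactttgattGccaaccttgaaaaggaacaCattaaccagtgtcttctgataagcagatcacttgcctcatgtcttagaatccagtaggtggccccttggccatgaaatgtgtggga
GSTA2: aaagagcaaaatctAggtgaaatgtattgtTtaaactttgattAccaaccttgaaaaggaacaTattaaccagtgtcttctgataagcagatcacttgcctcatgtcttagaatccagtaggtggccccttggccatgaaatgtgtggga

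Both genes fell by more than 1 on the log2 scale with 3 extracts at 500 µg/mL. GSTA1 was at 28.4, 28.3 and 28.7 CPM with Zingiberis Rhizoma Recens, at 34.5, 30.0 and 31.8 CPM with Scutellariae Radix and at 38.5, 34.5 and 37.7 CPM with Sayeok-tang, against 79.0, 76.8 and 82.9 CPM in vehicle. Every library of these groups lay below every vehicle library. The log2 fold changes of GSTA1 were -1.48 ± 0.06 (adjusted p = 2.27e-24) with Zingiberis Rhizoma Recens, -1.31 ± 0.06 (adjusted p = 6.72e-23) with Scutellariae Radix and -1.11 ± 0.06 (adjusted p = 4.64e-20) with Sayeok-tang. GSTA2 was at 5.00, 4.30 and 3.81 CPM with Zingiberis Rhizoma Recens, at 5.69, 4.77 and 5.40 CPM with Scutellariae Radix and at 5.76, 5.87 and 6.07 CPM with Sayeok-tang, against 12.2, 11.8 and 13.3 CPM in vehicle. It did not overlap with vehicle either, with log2 fold changes of -1.50 ± 0.10, -1.22 ± 0.09 and -1.07 ± 0.09 in the same order (adjusted p at most 2.48e-13).

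With the other extracts the differences were smaller. GSTA1 was at 61.8 and 69.2 CPM with Bojungikgi-tang (-0.28 ± 0.06, adjusted p = 0.00495), a call that was lost without its replicate 2 (adjusted p = 0.288). It was at 70.5 and 69.4 CPM with Zingiberis Rhizoma (-0.19 ± 0.06, adjusted p = 0.0154), a call that was lost without either of these libraries or without vehicle replicate 3 (adjusted p 0.0572 to 0.0965). GSTA2 was not called with Bojungikgi-tang (0.01 ± 0.09) or Zingiberis Rhizoma (-0.08 ± 0.09). With Pinelliae Tuber neither GSTA1 (0.05 ± 0.06) nor GSTA2 (0.03 ± 0.08) was called. At 100 µg/mL Zingiberis Rhizoma Recens already had lower GSTA1, at 54.2 ± 1.39 CPM (-0.55 ± 0.06, adjusted p = 6.28e-10), and lower GSTA2, at 7.81 ± 0.888 CPM (-0.67 ± 0.09, adjusted p = 2.4e-07). Scutellariae Radix at that dose had GSTA1 at 75.0 ± 1.43 CPM (-0.08 ± 0.06, not called). The sum of 5 GSTA genes fell at 500 µg/mL of Zingiberis Rhizoma Recens (-1.24 ± 0.05), Scutellariae Radix (-0.92 ± 0.05), Sayeok-tang (-0.84 ± 0.05), Bojungikgi-tang (-0.19 ± 0.06, edgeR, adjusted p = 0.043) and Zingiberis Rhizoma (-0.16 ± 0.06, edgeR, adjusted p = 0.0159).

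**Figure D3:**
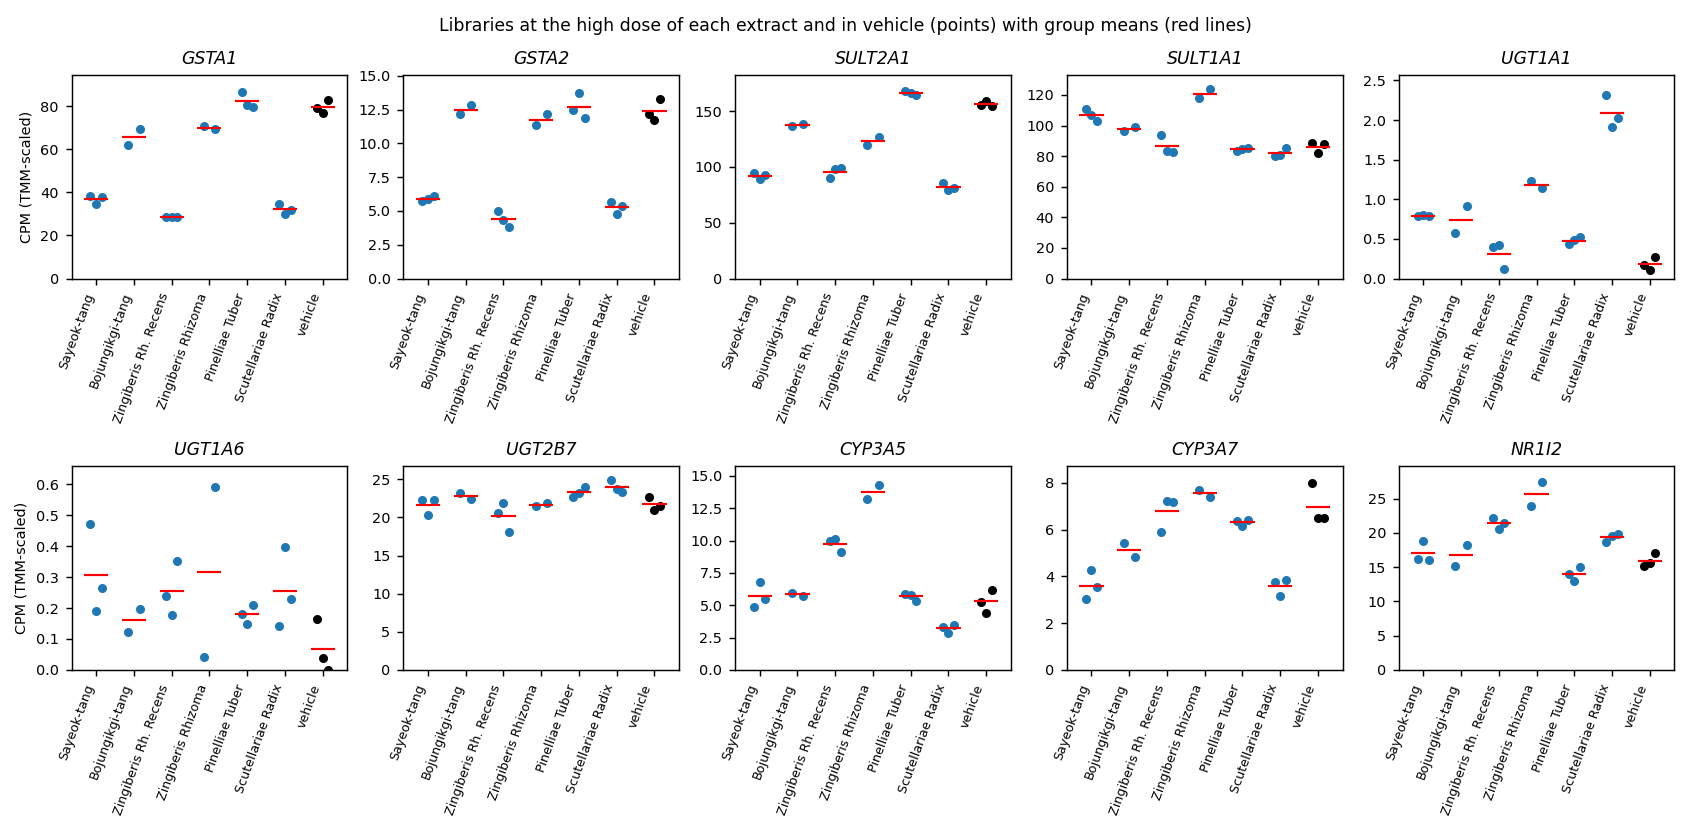
TMM-scaled CPM (vertical axis) of the 10 genes in every library at 500 µg/mL of 6 extracts and, on the right, in vehicle, with group means as lines. GSTA1 libraries of Sayeok-tang, Zingiberis Rhizoma Recens and Scutellariae Radix sit below all vehicle libraries, and CYP3A5 libraries of both ginger extracts sit above them.

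SULT2A1 encodes the sulfotransferase of dehydroepiandrosterone and bile acids, and SULT1A1 that of small phenols. SULT2A1 (ENSG00000105398, chromosome 19 from 47870466 to 47886397, minus strand) shares no 100-base word with another gene, and SULT1A1 (ENSG00000196502, chromosome 16 from 28605196 to 28623625, minus strand) shares 5.4% of its words, mostly with SULT1A3 and SULT1A4. At 500 µg/mL SULT2A1 fell with 5 of the 6 extracts and SULT1A1 rose with 3.

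SULT2A1 was at 85.6, 79.2 and 81.4 CPM with Scutellariae Radix, at 94.3, 88.9 and 92.6 CPM with Sayeok-tang and at 89.9, 97.7 and 99.2 CPM with Zingiberis Rhizoma Recens, against 155, 159 and 155 CPM in vehicle. No library of these groups reached a vehicle library. The log2 fold changes of SULT2A1 were -0.93 ± 0.05 (adjusted p = 1.64e-20), -0.77 ± 0.05 (adjusted p = 3.71e-17) and -0.71 ± 0.05 (adjusted p = 2.44e-16) in that order. Zingiberis Rhizoma had 119.7 and 127 CPM (-0.34 ± 0.06, adjusted p = 1.59e-06). Bojungikgi-tang had 136 and 138 CPM (-0.19 ± 0.06, adjusted p = 0.0378), a call that was lost when any 1 of these or of the vehicle libraries was left out (adjusted p 0.0678 to 0.308). Pinelliae Tuber had 168, 166 and 165 CPM (0.09 ± 0.05, adjusted p = 0.228), all above vehicle and not called. At 100 µg/mL of Zingiberis Rhizoma Recens the gene was already lower (135 ± 3.56 CPM, -0.22 ± 0.05, adjusted p = 0.00197).

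SULT1A1 was at 118 and 124 CPM with Zingiberis Rhizoma, at 111, 107 and 103 CPM with Sayeok-tang and at 96.5 and 99.0 CPM with Bojungikgi-tang, against 88.5, 82.1 and 87.7 CPM in vehicle. None of these libraries overlapped with vehicle. The log2 fold changes of SULT1A1 were 0.49 ± 0.05 (adjusted p = 5.63e-12), 0.31 ± 0.04 (adjusted p = 5.58e-08) and 0.18 ± 0.05 (adjusted p = 0.016) in that order. The Bojungikgi-tang call was lost without either of its libraries or without vehicle replicate 2 (adjusted p 0.0927 to 0.135). Scutellariae Radix gave another order of doses, with SULT1A1 at 103 ± 3.51 CPM at 20 µg/mL (0.26 ± 0.04, adjusted p = 3.8e-05), 106 ± 3.38 CPM at 100 µg/mL (0.29 ± 0.04, adjusted p = 9.57e-07) and 82.2 ± 2.65 CPM at 500 µg/mL (-0.07 ± 0.04, adjusted p = 0.185). Its high dose was lower than its low dose (-0.33 ± 0.04, adjusted p = 9.87e-09). Summed over 4 SULT1A genes, the high dose of Scutellariae Radix was lower than vehicle (-0.28 ± 0.04, adjusted p = 1.28e-08), and those of Zingiberis Rhizoma (0.36 ± 0.04), Sayeok-tang (0.35 ± 0.04) and Bojungikgi-tang (0.19 ± 0.04) were higher.

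The UGT1A genes are alternative first exons joined to the same later exons, so that their transcripts share their 3′ part. UGT1A1, the enzyme that conjugates bilirubin (ENSG00000241635, chromosome 2 from 233760248 to 233773299, plus strand), shares 48.8% of its 100-base words with other genes, and UGT1A6, which conjugates phenols (ENSG00000167165, chromosome 2 from 233691607 to 233773300, plus strand), shares 58.6%. Both had few reads, and how these were divided between the genes is uncertain.

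UGT1A1 levels at 500 µg/mL were above vehicle with Scutellariae Radix, Zingiberis Rhizoma, Sayeok-tang, Bojungikgi-tang and Pinelliae Tuber. Scutellariae Radix libraries had 66.2, 47.6 and 53.3 expected counts of UGT1A1, against 4.27, 3.33 and 6.73 in vehicle libraries. In CPM, from the rounded counts, these are 2.32, 1.91 and 2.03 with Scutellariae Radix, against 0.165, 0.112 and 0.275 in vehicle. The log2 fold change was 3.48 ± 0.42 with the filter, and 3.48 without it (edgeR, adjusted p = 2.36e-21). UGT1A1 was at 1.23 and 1.14 CPM with Zingiberis Rhizoma (2.67 ± 0.51 with the filter, and 2.66 without it, edgeR, adjusted p = 4.43e-09). It was at 0.784, 0.800 and 0.792 CPM with Sayeok-tang (2.09 ± 0.50, adjusted p = 0.000665). All libraries of these 3 groups were above all vehicle libraries. With Bojungikgi-tang it was at 0.569 and 0.912 CPM (1.99 ± 0.56, adjusted p = 0.0277), a call that was lost without either library or without vehicle replicate 1 or 2 (adjusted p 0.0607 to 0.249). It was not called with Pinelliae Tuber, at 0.432, 0.480 and 0.525 CPM (1.37 ± 0.55, adjusted p = 0.0821, but 0.0396 with no filter and 0.0469 with the compared groups alone in the fit), or with Zingiberis Rhizoma Recens, at 0.397, 0.427 and 0.118 CPM (0.78 ± 0.60, adjusted p = 0.297). With Scutellariae Radix the mean was 0.510 ± 0.182 CPM at 20 µg/mL (not called, adjusted p = 0.0738, but 0.0245 with no filter), 0.859 ± 0.0771 CPM at 100 µg/mL (2.20 ± 0.49, adjusted p = 0.000878) and 2.09 ± 0.211 CPM at 500 µg/mL.

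The sum over 9 UGT1A genes depends less on how shared reads were divided. It was higher than vehicle at 500 µg/mL of all 6 extracts. On the log2 scale the rise was 3.14 ± 0.26 with Scutellariae Radix, 2.43 ± 0.31 with Zingiberis Rhizoma and 2.15 ± 0.29 with Sayeok-tang. It was 1.76 ± 0.34 with Bojungikgi-tang, 1.40 ± 0.32 with Pinelliae Tuber and 1.16 ± 0.33 with Zingiberis Rhizoma Recens. Among the groups compared, the mean of the sum reached 1 CPM only where it is high, so that these values are a description. The summed level was 2.57 CPM with Scutellariae Radix and 0.291 CPM in vehicle. CYP1A1, an oxidase whose gene is the best known target of the aryl hydrocarbon receptor, was called higher at the same 6 doses. It was at 470.1 CPM with Scutellariae Radix, 293 with Sayeok-tang, 236 with Zingiberis Rhizoma, 84.2 with Bojungikgi-tang, 49.3 with Zingiberis Rhizoma Recens and 48.2 with Pinelliae Tuber, against 12.5 ± 1.65 CPM in vehicle. TIPARP, another target of that receptor, had log2 fold changes from -0.16 to 0.11 at these doses, none past the threshold (lowest adjusted p = 0.0841). The NRF2 targets NQO1 and GCLM were called higher at all 6, with NQO1 between 839 and 1263 CPM, against 669 ± 13.5 CPM in vehicle, and GCLM between 70.1 and 145 CPM, against 54.4 ± 2.24 CPM in vehicle. Over the low, medium and high doses of Scutellariae Radix the summed UGT1A level was 0.936, 1.04 and 2.57 CPM. CYP1A1 was there at 237, 681 and 470 CPM and NQO1 at 1005, 1174 and 1115 CPM, both highest at the medium dose. GCLM rose with each dose, at 75.1, 111 and 145 CPM. With the others of these 6 extracts CYP1A1 and NQO1 were highest at the high dose. Whether these genes changed for a common reason was not tested.

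UGT1A6 did not pass the filter on low counts. Sayeok-tang libraries at 500 µg/mL had 0.470, 0.191 and 0.264 CPM of UGT1A6, Zingiberis Rhizoma libraries 0.0424 and 0.593 CPM and Scutellariae Radix libraries 0.141, 0.397 and 0.230 CPM, against 0.165, 0.0372 and 0 CPM in vehicle. Vehicle replicate 1 lay below all 3 Sayeok-tang libraries and within the range of the other groups. In a fit with no filter (33878 genes) the adjusted p of UGT1A6 was 0.0173 with Sayeok-tang, 0.0285 with Zingiberis Rhizoma and 0.0443 with Scutellariae Radix, from at most 13.8 expected counts in a library. The rise of UGT1A reads beside CYP1A1 and NQO1 at 500 µg/mL is why 2 stretches before UGT1A6 starts are shown. In RefSeq promoter windows (250 bases before each start, GRCh38.p14, 11 windows of 9 of the 10 genes, none given for SULT1A1), GCGTG, the core to which the aryl hydrocarbon receptor binds, and TGACNNNGC, the core that NRF2 binds, were searched on both strands. Each was found in 1 window, both times of UGT1A6, and these letters occur in 32.2% and 10.9% of 35116 windows of all genes. Capitals mark the match, and the stretches lie at chr2:233691490-233691519 and chr2:233692782-233692811 on the plus strand, from 212 and 108 bases before their starts. A match describes letters, not binding.
UGT1A6 with GCGTG: gaacaggaactcGCGTGccagccaggtgtg
UGT1A6 with TGACNNNGC: aggtgaaagcTGACACGGCcatagttggtt

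UGT2B7, which conjugates morphine and steroids (ENSG00000171234, chromosome 4 from 69051363 to 69112987, plus strand), shares no 100-base word with another gene. It did not pass edgeR's threshold in any of the 27 comparisons (lowest adjusted p = 0.0675). At 500 µg/mL it was at 24.9, 23.7 and 23.3 CPM with Scutellariae Radix, against 22.7, 21.0 and 21.5 CPM in vehicle. The groups did not overlap (0.14 ± 0.07, adjusted p = 0.0675, interval of 2 SE from 0.01 to 0.28). With these groups alone in the fit it was called (edgeR, adjusted p = 0.04), as it was for high against low without replicate 3 of the low dose (0.17, adjusted p = 0.046). Its mean was 20.2 ± 1.98 CPM with Zingiberis Rhizoma Recens and 21.6 ± 1.19 CPM with Sayeok-tang, against 21.7 ± 0.850 CPM in vehicle. The sum of 7 UGT2B genes was lower than vehicle with Zingiberis Rhizoma Recens (-0.73 ± 0.05), Zingiberis Rhizoma (-0.65 ± 0.06), Sayeok-tang (-0.33 ± 0.05) and Scutellariae Radix (-0.19 ± 0.05, adjusted p = 0.00184), while UGT2B7 itself was not called.

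CYP3A5 and CYP3A7 encode oxidases with overlapping substrates, which include many drugs and steroids. CYP3A5 (ENSG00000106258, chromosome 7 from 99648194 to 99680026, minus strand) shares 0.3% of its 100-base words, with CYP3A4. CYP3A7 (ENSG00000160870, chromosome 7 from 99684957 to 99735196, minus strand) shares 65.0%, mostly with CYP3A7-CYP3A51P, so that its counts are uncertain by the reads given to that gene. CYP3A4, the main adult form, was at 0.222 CPM in vehicle and was not tested.

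CYP3A5 rose with the ginger extracts, where CYP3A7 was not called, and both genes fell with Scutellariae Radix. CYP3A5 was at 13.2 and 14.3 CPM with Zingiberis Rhizoma and at 9.97, 10.1 and 9.15 CPM with Zingiberis Rhizoma Recens, against 5.27, 4.39 and 6.21 CPM in vehicle. All libraries of both were above vehicle, with log2 fold changes of 1.38 ± 0.12 (adjusted p = 7.25e-13) and 0.88 ± 0.12 (adjusted p = 1.71e-08). With Scutellariae Radix CYP3A5 was at 3.34, 2.86 and 3.49 CPM at 500 µg/mL, all below vehicle (-0.71 ± 0.14, adjusted p = 1.99e-05). At 100 µg/mL of Scutellariae Radix it was at 3.72 ± 0.179 CPM (-0.51 ± 0.13, adjusted p = 0.00465), a call that was lost without vehicle replicate 3 (adjusted p = 0.0822). CYP3A5 was set directly against Scutellariae Radix at 500 µg/mL because of these opposite calls, so that the difference is a description. The libraries also carry different numbers in their labels, and these numbers and the extracts cannot be told apart. CYP3A5 was higher with Zingiberis Rhizoma by 2.09 ± 0.13, where 31.3% of all genes were called. With Zingiberis Rhizoma Recens it was higher by 1.59 ± 0.12, where 44.1% of all genes were called. CYP3A5 was not called with Sayeok-tang (0.12 ± 0.12), Bojungikgi-tang (0.14 ± 0.14) or Pinelliae Tuber (0.10 ± 0.12).

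CYP3A7 was at 3.76, 3.14 and 3.83 CPM with Scutellariae Radix and at 3.02, 4.27 and 3.53 CPM with Sayeok-tang at 500 µg/mL, against 7.98, 6.47 and 6.49 CPM in vehicle. All libraries of both were below vehicle, with log2 fold changes of -0.96 ± 0.12 (adjusted p = 3.62e-09) and -0.95 ± 0.12 (adjusted p = 1.05e-08). At 100 µg/mL it was at 3.58 ± 0.161 CPM with Scutellariae Radix (-0.96 ± 0.12, adjusted p = 3.9e-08) and 4.51 ± 0.125 CPM with Sayeok-tang (-0.63 ± 0.12, adjusted p = 0.000592). At 20 µg/mL of Scutellariae Radix it was at 5.08 ± 0.573 CPM (-0.46 ± 0.11, adjusted p = 0.00617), a call that was lost without its replicate 1 or vehicle replicate 1 (adjusted p 0.0547 to 0.0679). Bojungikgi-tang at 500 µg/mL had 5.44 and 4.84 CPM (-0.44 ± 0.13, adjusted p = 0.0385), a call that was lost without either library or vehicle replicate 1 (adjusted p 0.133 to 0.267) and with DESeq2 (adjusted p = 0.0665). CYP3A7 was not called with Zingiberis Rhizoma (0.11 ± 0.12) or Zingiberis Rhizoma Recens (-0.04 ± 0.11). The sum of 4 CYP3A genes was higher with both ginger extracts (0.75 ± 0.10 with Zingiberis Rhizoma and 0.40 ± 0.09 with Zingiberis Rhizoma Recens) and lower with Scutellariae Radix (-0.86 ± 0.10) and Sayeok-tang (-0.41 ± 0.10).

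NR1I2 (ENSG00000144852, chromosome 3 from 119780484 to 119818485, plus strand) rose with 3 extracts at 500 µg/mL. It was at 23.9 and 27.4 CPM with Zingiberis Rhizoma, at 22.2, 20.6 and 21.4 CPM with Zingiberis Rhizoma Recens and at 18.7, 19.6 and 19.8 CPM with Scutellariae Radix, against 15.2, 15.6 and 17.1 CPM in vehicle. No library of these groups overlapped with vehicle, and the log2 fold changes of NR1I2 were 0.69 ± 0.08 (adjusted p = 4.85e-10), 0.42 ± 0.07 (adjusted p = 2.58e-06) and 0.28 ± 0.07 (adjusted p = 0.000966) in that order. NR1I2 and CYP3A5 were thus both higher with the ginger extracts, and with Scutellariae Radix NR1I2 was higher and CYP3A5 lower. At 100 µg/mL of Scutellariae Radix NR1I2 was at 18.8 ± 0.534 CPM (0.23 ± 0.07, adjusted p = 0.0169), a call that was lost without its replicate 2 or vehicle replicate 1 or 2 (adjusted p 0.0629 to 0.0854). It was not called with Sayeok-tang (0.09 ± 0.07), Bojungikgi-tang (0.07 ± 0.08) or Pinelliae Tuber (-0.19 ± 0.07, adjusted p = 0.0802). Without Pinelliae Tuber replicate 3 it was called lower (adjusted p = 0.0481).

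The high dose of each extract was also set against its low dose. Shares of all genes here, and between extracts below, hold both directions. With Scutellariae Radix 8 of 9 genes were called (2 higher and 6 lower), where 55.7% of all genes were called. Sayeok-tang had 6 called (2 higher and 4 lower, 37.6% of all genes), Zingiberis Rhizoma Recens 5 (2 higher and 3 lower, 47.6%) and Zingiberis Rhizoma 5 (4 higher and 1 lower, 47.4%). Without replicate 3 of the low dose the count was 8 with Scutellariae Radix and 5 with Zingiberis Rhizoma. GSTA1 was lower at the high than at the low dose of Zingiberis Rhizoma Recens (-1.46 ± 0.06), Scutellariae Radix (-1.28 ± 0.06) and Sayeok-tang (-1.01 ± 0.06). CYP3A5 was higher at the high dose of Zingiberis Rhizoma (1.30 ± 0.12) and of Zingiberis Rhizoma Recens (0.84 ± 0.12). UGT1A1 was higher at the high dose of Sayeok-tang (1.36 ± 0.45), a call that was lost without replicate 3 of the low dose (adjusted p = 0.0574). In the fit with no filter it was also higher at the high dose of Zingiberis Rhizoma (2.17, edgeR, adjusted p = 2.08e-07) and of Scutellariae Radix (2.01, adjusted p = 4.72e-11). That fit did not call it with Pinelliae Tuber (1.32, adjusted p = 0.0701), Bojungikgi-tang (1.08, adjusted p = 0.457) or Zingiberis Rhizoma Recens (0.85, adjusted p = 0.291). NR1I2 was higher at the high dose of Scutellariae Radix (0.19 ± 0.07), a call that was lost without high replicate 3 or low replicate 3 (adjusted p 0.0589 to 0.102). With Pinelliae Tuber 1 gene was called (10.1% of all genes), NR1I2, which was lower at the high dose (-0.25 ± 0.07, adjusted p = 0.0235). That call was lost without high replicate 1 or 2 or low replicate 1 or 3 (adjusted p 0.0639 to 0.141), and without low replicate 2 UGT1A1 was called as well. With Bojungikgi-tang edgeR called 0 of 9 (1.69% of all genes), 4 had an unadjusted p under 0.05, and DESeq2 called 1, SULT1A1, with no adjusted p for 1.

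Fresh and dried ginger were compared at 500 µg/mL. Zingiberis Rhizoma Recens had 7 of 9 genes called against Zingiberis Rhizoma (7 lower), where 23.5% of all genes were called, higher or lower. GSTA2 was at 4.37 ± 0.600 CPM with Zingiberis Rhizoma Recens and 11.8 ± 0.619 CPM with Zingiberis Rhizoma (-1.43 ± 0.11), and GSTA1 at 28.5 ± 0.205 CPM and 70.0 ± 0.783 CPM in the same order (-1.30 ± 0.07). UGT1A1 was lower too (-1.89 ± 0.46 with the filter, and -1.88 without it, edgeR, adjusted p = 2.37e-05). So were CYP3A5 (-0.50 ± 0.12), SULT1A1 (-0.48 ± 0.05), SULT2A1 (-0.37 ± 0.06) and NR1I2 (-0.26 ± 0.08). The NR1I2 call was lost without replicate 2 of Zingiberis Rhizoma (adjusted p = 0.291). UGT2B7 and CYP3A7 were not called, with intervals of 2 SE from -0.25 to 0.06 for UGT2B7 and from -0.40 to 0.09 for CYP3A7.

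Scutellariae Radix and Pinelliae Tuber differed at 500 µg/mL in 7 of 9 genes (2 higher and 5 lower with Scutellariae Radix), where 55.9% of all genes were called. UGT1A1 (2.11 ± 0.34 with the filter, and 2.12 without it, edgeR, adjusted p = 5.94e-12) and NR1I2 (0.46 ± 0.07) were higher. GSTA1 (-1.35 ± 0.06), GSTA2 (-1.26 ± 0.09), SULT2A1 (-1.02 ± 0.05), CYP3A5 (-0.81 ± 0.13) and CYP3A7 (-0.81 ± 0.12) were lower. Sayeok-tang and Bojungikgi-tang differed in 5 of 9 (1 higher and 4 lower with Sayeok-tang), where 26.2% of all genes were called, and in 3 without Bojungikgi-tang replicate 2. GSTA2 (-1.08 ± 0.10), GSTA1 (-0.83 ± 0.07), SULT2A1 (-0.58 ± 0.06) and CYP3A7 (-0.51 ± 0.14) were lower and SULT1A1 (0.13 ± 0.05, adjusted p = 0.0378) was higher. The SULT1A1 call was lost without either Bojungikgi-tang library or without Sayeok-tang replicate 1 or 2 (adjusted p 0.0659 to 0.244), and the CYP3A7 call without Bojungikgi-tang replicate 2 (adjusted p = 0.107).

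**Figure D4:**
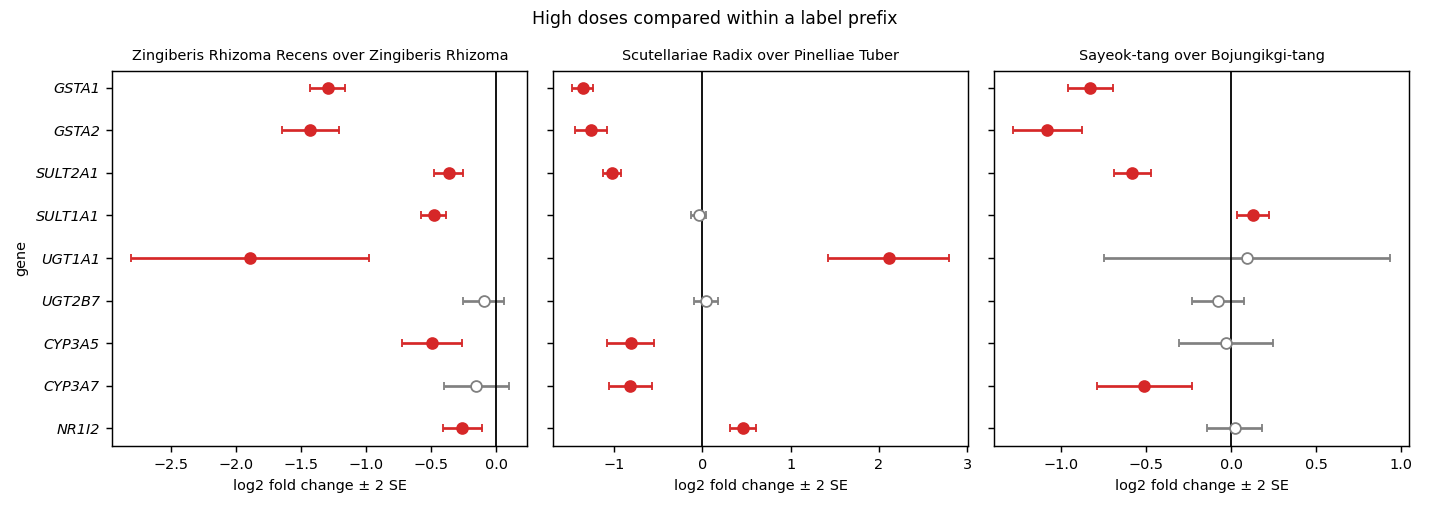
Log2 fold change of the first named extract over the second at 500 µg/mL, with intervals of 2 standard errors, for the 9 tested genes. In the comparison of Zingiberis Rhizoma Recens with Zingiberis Rhizoma the 7 called genes lie below 0, that is, lower with Zingiberis Rhizoma Recens.

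Coptidis Rhizoma and Zizyphi Fructus had 1 library per dose, so that their values have no replicate check and no test. At 56 µg/mL of Coptidis Rhizoma 5 of 9 genes were at least 1.5-fold from the vehicle mean, beside 21.4% of all genes. GSTA1 was at 13.3 CPM and GSTA2 at 1.41 CPM, the lowest value of each in the 58 libraries. UGT1A1 was at 1.37 CPM (7.32-fold of vehicle), NR1I2 at 26.6 CPM (1.67-fold) and CYP3A7 at 4.60 CPM (0.661-fold), while CYP1A1 was at 1142 CPM. At 11.2 µg/mL 2 of 9 passed that fold, GSTA2 at 8.16 CPM and UGT1A1 at 0.754 CPM, beside 6.15% of all genes. With Zizyphi Fructus 1 of 9, UGT1A1, passed it at 20 µg/mL (3.63% of all genes), at 100 µg/mL (2.81%) and at 500 µg/mL (2.71%), from 0, 9.75 and 9 expected counts. It was thus below the vehicle mean at the low dose and above it at the others. GSTA1 was at 81.3, 76.6 and 83.2 CPM in these libraries.

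Related genes were described by lists, at 500 µg/mL against vehicle. These lists too were chosen with earlier results of these data known, so that their counts are a description. The counts stand beside shares of all genes of 24.3% higher and 23.6% lower with Zingiberis Rhizoma Recens, 23.3% and 22.8% with Zingiberis Rhizoma, and 28.7% and 28.1% with Scutellariae Radix. With Sayeok-tang these were 20.3% and 19.9%, with Pinelliae Tuber 9.14% and 6.57%, and with Bojungikgi-tang 2.24% and 2.31%. Medians of log2 fold changes over a list are given as the range over the 6 extracts, where those of all genes lay between 0.00 and 0.01. Of 12 tested glutathione transferases besides GSTA1 and GSTA2, Zingiberis Rhizoma Recens had 3 higher and 5 lower, Scutellariae Radix 3 higher and 5 lower, Pinelliae Tuber 2 higher and 4 lower, Zingiberis Rhizoma 3 higher and 2 lower, Sayeok-tang 2 higher and 2 lower and Bojungikgi-tang 1 higher. The list median ranged from -0.13 to 0.09. MGST1, a microsomal enzyme that also reduces peroxides, had the largest rise of the list with each extract, and was at 342 ± 1.09 CPM with Zingiberis Rhizoma and 208 ± 7.10 CPM with Pinelliae Tuber, against 173 ± 6.95 CPM in vehicle. GSTM2, of the mu class, had the largest fall with Zingiberis Rhizoma (-0.83 ± 0.12), Zingiberis Rhizoma Recens (-0.59 ± 0.10), Scutellariae Radix (-0.51 ± 0.10) and Sayeok-tang (-0.51 ± 0.10). GSTZ1, which acts in tyrosine breakdown, fell with Pinelliae Tuber (-0.30 ± 0.08).

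Of 8 tested genes of other sulfotransferases and of the supply of their sulfate donor, Zingiberis Rhizoma had 4 higher and 2 lower, Sayeok-tang 2 higher and 3 lower, Zingiberis Rhizoma Recens 1 higher and 2 lower, Scutellariae Radix 4 lower, Pinelliae Tuber 1 lower and Bojungikgi-tang 1 higher. The list median ranged from -0.13 to 0.11. SULT1A2, a close paralog of SULT1A1, rose with Sayeok-tang (0.47 ± 0.06) and Bojungikgi-tang (0.32 ± 0.07). SULT1A3, for monoamines, rose with Zingiberis Rhizoma (0.72 ± 0.25) and Zingiberis Rhizoma Recens (0.63 ± 0.23), and its near-identical copy SULT1A4 makes its counts uncertain. SULT1C2 fell with Sayeok-tang (-0.77 ± 0.08), Pinelliae Tuber (-0.38 ± 0.08) and Zingiberis Rhizoma Recens (-0.29 ± 0.08). SULT1E1, the estrogen sulfotransferase, fell with Zingiberis Rhizoma (-1.21 ± 0.35) and Scutellariae Radix (-0.64 ± 0.28).

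Of 6 tested genes of other glucuronosyltransferases and their donor, Zingiberis Rhizoma Recens had 1 higher and 4 lower, Zingiberis Rhizoma 1 higher and 4 lower, Scutellariae Radix 1 higher and 4 lower, Sayeok-tang 1 higher and 3 lower and Pinelliae Tuber 1 higher and 1 lower. With Bojungikgi-tang edgeR called 0, with 4 at an unadjusted p under 0.05 and 0 called by DESeq2 (no adjusted p for 2). The list median ranged from -0.35 to -0.01. UGDH, which makes the glucuronic acid donor, was the gene that rose with these 5 extracts, by 0.29 ± 0.04 with Sayeok-tang and by 0.14 ± 0.04 with Scutellariae Radix on the log2 scale. UGT2B10, which conjugates amines such as nicotine, was at 31.9 ± 2.20 CPM with Zingiberis Rhizoma Recens (-1.03 ± 0.06) and 33.4 ± 1.92 CPM with Zingiberis Rhizoma (-0.97 ± 0.06), against 65.3 ± 2.29 CPM in vehicle, and also fell with Pinelliae Tuber (-0.15 ± 0.05). UGT2B4, for bile acids, fell with Sayeok-tang (-1.48 ± 0.14) and Scutellariae Radix (-0.79 ± 0.13).

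Of 4 tested genes that are known targets of PXR or its relative CAR, Sayeok-tang had 3 higher and 1 lower, Zingiberis Rhizoma Recens 3 higher and 1 lower, Scutellariae Radix 3 higher and 1 lower, Zingiberis Rhizoma 3 higher, Pinelliae Tuber 3 higher and Bojungikgi-tang 2 higher. The list median ranged from 0.11 to 0.62. ABCC2, which exports conjugates into bile, had the largest rise of the list with each extract. It was at 1046 ± 13.8 CPM with Zingiberis Rhizoma (1.62 ± 0.05), 793 ± 14.0 CPM with Zingiberis Rhizoma Recens (1.22 ± 0.05), 784 ± 35.9 CPM with Scutellariae Radix (1.21 ± 0.05) and 655 ± 23.8 CPM with Sayeok-tang (0.95 ± 0.05), against 339.6 ± 8.26 CPM in vehicle. Its rise was 0.45 ± 0.05 with Pinelliae Tuber and 0.43 ± 0.05 with Bojungikgi-tang. POR, the electron donor of CYP enzymes, was the gene that fell, with Sayeok-tang (-0.19 ± 0.04), Zingiberis Rhizoma Recens (-0.13 ± 0.04) and Scutellariae Radix (-0.12 ± 0.04).

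Of 12 receptors and partners besides NR1I2, Zingiberis Rhizoma Recens had 4 higher and 5 lower, Sayeok-tang 2 higher and 6 lower, Zingiberis Rhizoma 2 higher and 6 lower, Scutellariae Radix 1 higher and 7 lower, Bojungikgi-tang 3 lower and Pinelliae Tuber 1 lower. The list median ranged from -0.16 to -0.00. NR1H4, the bile acid receptor FXR, was at 22.1 ± 1.81 CPM with Zingiberis Rhizoma Recens (-1.74 ± 0.05), 24.8 ± 0.883 CPM with Scutellariae Radix (-1.58 ± 0.05), 30.7 ± 0.506 CPM with Sayeok-tang (-1.27 ± 0.05) and 30.9 ± 1.47 CPM with Zingiberis Rhizoma (-1.26 ± 0.06), against 74.0 ± 1.52 CPM in vehicle, and also fell with Bojungikgi-tang (-0.22 ± 0.05). AHR, the aryl hydrocarbon receptor, rose with Zingiberis Rhizoma (0.66 ± 0.06), Scutellariae Radix (0.60 ± 0.05) and Sayeok-tang (0.26 ± 0.05). NR0B2, the repressor SHP, rose with Zingiberis Rhizoma Recens (0.77 ± 0.07), and ARNT, the dimer partner of AHR, fell with Pinelliae Tuber (-0.15 ± 0.05).

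Of 8 tested genes of other conjugations and epoxide hydrolysis, Zingiberis Rhizoma had 2 higher and 2 lower, Scutellariae Radix 1 higher and 3 lower, Sayeok-tang 1 higher and 2 lower and Zingiberis Rhizoma Recens 1 higher and 2 lower. EdgeR called 0 with Bojungikgi-tang (1 with an unadjusted p under 0.05, 0 by DESeq2 and 1 with no adjusted p) and 0 with Pinelliae Tuber (3 with an unadjusted p under 0.05, 1 by DESeq2 and 0 with no adjusted p). The list median ranged from -0.07 to 0.08. EPHX2, the soluble epoxide hydrolase, fell with Zingiberis Rhizoma Recens (-0.67 ± 0.07), Sayeok-tang (-0.59 ± 0.07) and Zingiberis Rhizoma (-0.46 ± 0.08), and EPHX1, the microsomal form, rose with Zingiberis Rhizoma (0.50 ± 0.05). BAAT, which joins bile acids to glycine or taurine, rose with Zingiberis Rhizoma Recens (0.90 ± 0.13) and fell with Scutellariae Radix (-0.51 ± 0.15). TPMT, which methylates thiopurine drugs, rose with Scutellariae Radix (0.29 ± 0.05) and Sayeok-tang (0.13 ± 0.05).

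The genes most like each of the 9 in pattern were found by Pearson's r of log2 CPM over the 24 group means, as a description. GSTA1 and GSTA2 were most like each other (0.988), followed by LGALS2 (0.957) and WWOX (0.956) for GSTA1 and by PXYLP1 (0.946) for GSTA2. SULT2A1 was most like CERS4 (0.942), SLC47A1 (0.932) and RXRA (0.931), and SULT1A1 most like SULT1A2 (0.917), its close paralog. NR1I2 was most like RAP1GAP (0.940), GCKR (0.917) and ABCC3 (0.913). The closest gene was ROBO1 for UGT1A1 (0.902), ZNF114 for CYP3A5 (0.893), TOLLIP for CYP3A7 (0.826) and TSG101 for UGT2B7 (0.773). A group mean rests on 1 to 3 libraries, and the genes share libraries and depth. Part of the reads of GSTA1 and GSTA2 was also divided between them by estimation.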

How the data were processed

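Total RNA of HepG2 cells was made into directional, paired-end mRNA libraries, per the labels' protocols. The authors deposited 1 table of expected counts per gene, and the submitters' processing notes name FastQC 0.11.9, Trim Galore 0.6.5, STAR 2.7.3a, RSEM 1.3.3 and GRCh38, while the strand setting of the counting is not given in the sources used here. The 58 labelled columns were used and 209 others were not. Of 60675 identifiers 57055 had a symbol. Expected counts were rounded and the 13945 genes that reached 1 CPM in 3 or more libraries were fitted over all 24 groups with TMM scaling in edgeR 4.0.16 (R 4.3.3), and DESeq2 1.42.0, RLE scaling, no filter, the compared groups alone, sums over gene families, a replicate block and leaving out each library were alternatives. CPM came from the rounded counts, so that values of genes with few counts carry rounding error. Replicates of no group agreed within sampling noise (chi-square per gene from 2.114 to 16.04). The genes and lists were chosen with earlier results of these data known. All 10 genes were examined in each comparison, UGT1A6 only in the fit with no filter, but the text does not name each gene for each comparison. From each other list, the called gene that rose most and the one that fell most at every high dose against vehicle were named. Genes most alike were the 3 with the highest r. Words of 100 bases were compared between GENCODE 29 transcripts, which RSEM may not have used. Promoter windows were RefSeq's. The wortmannin control named in the design text was not analysed here.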

Additional observations from a re-analysis of the deposited data

Results flagged for a closer look

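CYP3A5 changed in opposite directions over the same vehicle libraries, higher with the ginger extracts and lower with Scutellariae Radix at 500 µg/mL. It was singled out for these calls, so that the direct difference is a description. CYP3A5 was at 9.75 ± 0.529 CPM with Zingiberis Rhizoma Recens and 3.23 ± 0.326 CPM with Scutellariae Radix, a log2 difference of 1.59 ± 0.12, with all 3 libraries of Zingiberis Rhizoma Recens above all 3 of Scutellariae Radix. With Zingiberis Rhizoma it was at 13.8 ± 0.797 CPM, a log2 difference of 2.09 ± 0.13 from Scutellariae Radix, with both libraries above. The ginger extracts and Scutellariae Radix carry different numbers in their labels, so that these numbers and the extracts cannot be told apart in this comparison.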

How the results depend on the processing

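RLE scaling and the replicate block moved the number of called genes in none of the 27 comparisons by more than 1.5 times. Same-numbered libraries gave r from -0.157 to 0.206, above 0.1 in every pair in 0 of the 19 comparisons with 3 pairs and in 1 of the 8 with 2 pairs (Bojungikgi-tang high against low, 0.124), and with the replicate block 7 genes were called for the high dose of Scutellariae Radix, against 7 without it. With DESeq2 1 gene was called in place of 0 for Bojungikgi-tang high against low, and 3 in place of 5 for its high dose against vehicle, where CYP3A7 lost its call (adjusted p = 0.0665) and UGT1A1 had no adjusted p. DESeq2 gave no adjusted p for up to 6 of the 9 genes in a comparison. Without a filter, 1 gene in place of 0 was called for the high dose of Pinelliae Tuber (UGT1A1) and for the low dose of Sayeok-tang (SULT2A1). With the compared groups alone in the fit, 1 in place of 0, UGT1A1, was called for the high dose of Pinelliae Tuber, 2 in place of 1 for the medium dose of Sayeok-tang and 1 in place of 2 for the low dose of Scutellariae Radix. Leaving out 1 library gave 0 to 4 for Bojungikgi-tang high (5), 0 to 1 for Pinelliae Tuber high (0), 0 to 1 for Zingiberis Rhizoma low (0) and 1 to 3 for Scutellariae Radix low (2) against vehicle, 0 to 2 for Pinelliae Tuber high against low (1), and 3 to 5 for Sayeok-tang against Bojungikgi-tang (5), with the count of all libraries in parentheses. Sums over families turned 9 directions. The GSTA sum was -0.19 with Bojungikgi-tang high, where GSTA2 was 0.01. The CYP3A sum was -0.41 with Sayeok-tang high against vehicle and -0.26 against low, opposite to CYP3A5, and 0.40 with Zingiberis Rhizoma Recens high against vehicle and 0.36 against low, opposite to CYP3A7. The UGT2B sum, opposite to UGT2B7, was -0.19 with Scutellariae Radix high against vehicle, and against low -0.19 with Scutellariae Radix, -0.37 with Sayeok-tang and -0.57 with Zingiberis Rhizoma. A sum holds other genes than the one named. Leaving out replicate 2 of the low dose brought calls of UGT1A1 for Scutellariae Radix low against vehicle (edgeR, adjusted p = 0.0398) and for Zingiberis Rhizoma Recens high against low (edgeR, adjusted p = 0.035), and leaving out replicate 1 brought one of CYP3A5 for Sayeok-tang high against low (edgeR, adjusted p = 0.0492). The alternatives were run on the 10 genes and not on the other named genes. The causes of the other differences were not tested. The low counts of UGT1A1 and UGT1A6 limit what can be called for them.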
